A study of Caenorhabditis elegans with 4 samples.

Results

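The NHR-67 regions of chromosome III are all the called binding regions that lie on that chromosome, whatever their score. They number 28 of 113 regions in the combined list of the authors, 4609 of 30000 in the list of ChIP replicate 1 and 2953 of 18783 in the list of ChIP replicate 2. The regions come from chromatin immunoprecipitation and sequencing (ChIP-seq) with an antibody against GFP in Caenorhabditis elegans hermaphrodites of the L3 larval stage, grown at 20 °C. All 4 samples, 2 ChIP samples and 2 inputs, are of strain OP373, which carries the unc119(ed3) mutation and the transgene wgIs373, a copy of nhr-67 with TY1, EGFP and FLAG tags, together with an unc119 rescue. The transgene was introduced by bombardment, and the labels name no change at the native nhr-67 gene. Chromatin came from whole larvae, so a region cannot be assigned to a cell type. No sample without the transgene is among the samples, and the inputs were not analysed here, so the regions have no background measured in the same way. Whether the replicates are separate cultures is not stated in the labels, so their differences may be technical.

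NHR-67 is a nuclear receptor of the tailless/TLX family, a transcription factor that binds DNA and is known for keeping the anchor cell, the uterine cell that invades the vulval tissue in the L3 stage, arrested in its cycle and able to invade. It also acts in the choice between the anchor cell and ventral uterine fates, where the Notch receptor LIN-12 works. The worm's autosomes have a gene-dense centre between arms with more repeats and more recombination, and their centromere activity is spread along the whole chromosome. Chromosome III carries lin-12, the related receptor gene glp-1, the Hox genes lin-39, ceh-13 and mab-5, and unc-119, the gene whose mutation is rescued in this strain, while nhr-67 itself is on IV. None of these genes was placed on the coordinates used here, so whether a region lies at any of them was not examined.

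Regions are given by the peak number in their deposited names, where a low number goes with a high score in each replicate list and mitochondrial regions are counted too. Counts of best regions use the order of the nuclear regions alone. Coordinates are 1-based on WormBase build WS220. A region was taken as shared when the overlap was at least 50% of the shorter region. Intervals are 95% exact (Clopper-Pearson) binomial intervals and cover counting error only. Regions of a list are not replicates of the experiment, so no test was made of any difference between III and the other autosomes (I, II, IV and V), and none is called particular to III. The lists give no read counts, so the depth is unknown.

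Called regions were denser on III than on each other autosome in all 3 lists. The combined list had 2.03 regions per Mb on III, against 1.44 on II, 1.13 on I, 0.622 on V and 0.401 on IV, or 0.859 over these 4. In the full lists the difference was much smaller, with 335 regions per Mb on III in replicate 1 against 276 to 316 on the other autosomes. In replicate 2 it was 214 per Mb against 164 to 194. The ratio of III to the other autosomes together was thus 2.37 in the combined list, 1.13 in replicate 1 and 1.18 in replicate 2. Merged where they overlapped, the regions covered 12.9% of the span of III in replicate 1 and 9.64% in replicate 2, against 11.5% and 8.19% of the other autosomes.

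The best scores were also more frequent on III in both replicates. The highest score of replicate 1, 2.91, was carried by 79 III regions (1.71%, where 1.29% of all nuclear regions carried it and 1.04 to 1.40% on the other autosomes). The highest score of replicate 2, 3.53, was carried by 313 III regions (10.6%, against 8.90% of all nuclear regions and 7.44 to 9.02% on the other autosomes). III held 20.5% of the regions at that ceiling in replicate 1 (95% interval 16.6 to 24.8) and 18.7% in replicate 2 (16.9 to 20.7), against 13.8% of the summed span. Over all regions the median scores were close to those elsewhere, at 0.235 on III and 0.229 on the other autosomes in replicate 1, and 0.956 and 0.931 in replicate 2. In the combined list III held 10 of the 56 regions with the lowest numbers (17.9%, 8.91 to 30.4) and 18 of the other 57 (31.6%, 19.9 to 45.2), and these intervals overlap. Of as many best nuclear regions of a single replicate as the combined list holds, III had 25 in replicate 1 (22.1%) and 16 in replicate 2 (14.2%), so the share near that of the combined list was seen in replicate 1 alone.

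The span of III that the called regions of the 3 lists reach ran from 3091 to 13780724, or 13.8 Mb. It was divided at 4595635 and 9188180 into 3 parts of equal length, called left arm, centre and right arm here, whose borders are not those known from genetic maps. The 28 combined regions were placed 11 in the left arm, 11 in the centre and 6 in the right arm. These are 39.3%, 39.3% and 21.4% of the members, where 32.7%, 37.2% and 30.1% of all combined regions lay in the left arm, centre and right arm of their chromosomes. On the other autosomes together the counts were 17, 23 and 19. The individual autosomes varied widely, from 8, 5 and 4 on I to 2, 10 and 10 on II. The first combined region of III lay 1.62 Mb from the left end of the span and the last 0.71 Mb from the right end.

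**Figure D1:**
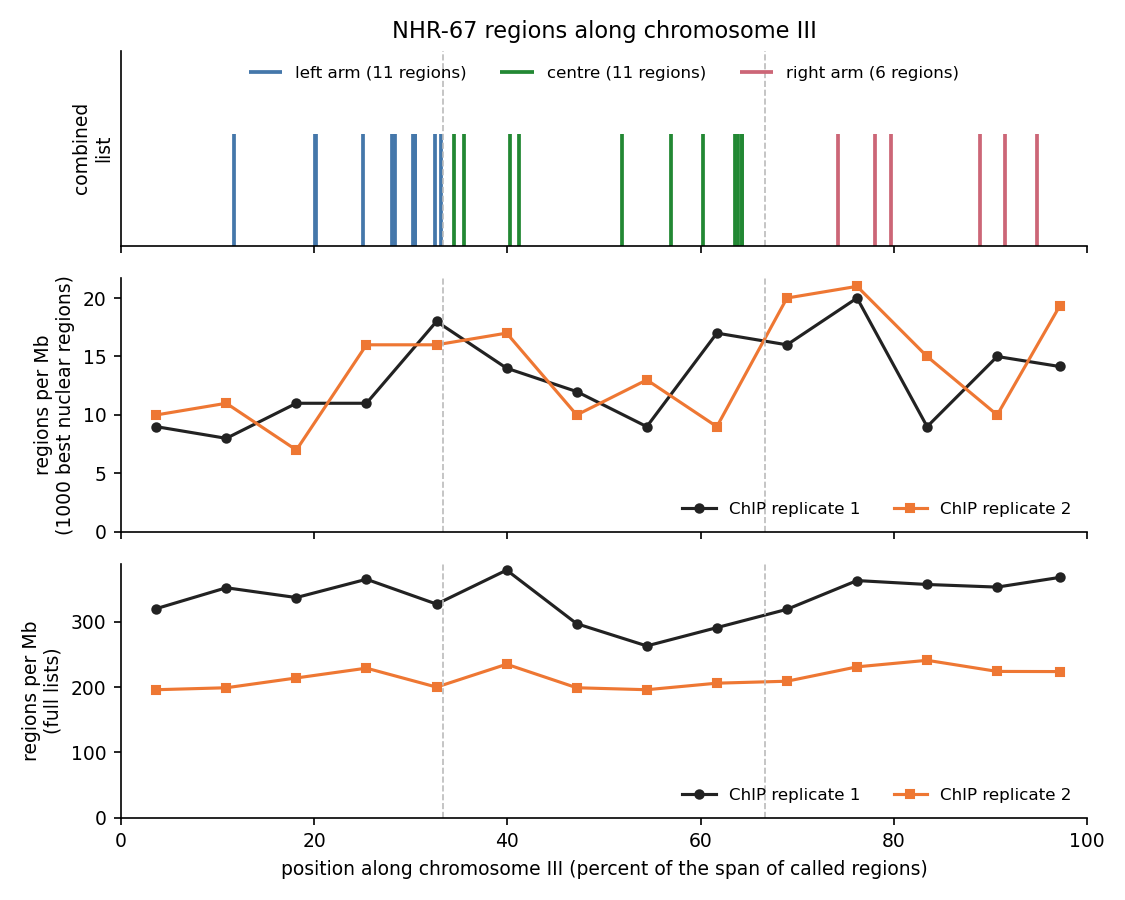
Positions of the 28 combined regions along chromosome III (top, one line per region, coloured by part of the chromosome) and regions per Mb in windows of 1 Mb among the 1000 best nuclear regions (middle) and in the full lists (bottom) of each ChIP replicate, against the position in percent of the span. The combined regions gather around the border of left arm and centre, while the windows of the 1000 best peak in the right arm.

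The replicate lists were placed differently from the combined list. In the full lists the 3 parts were nearly even, with 1577, 1402 and 1630 regions from left to right in replicate 1 and 967, 944 and 1042 in replicate 2. Among the 1000 best nuclear regions, 180 of replicate 1 and 190 of replicate 2 lay on III, and the right arm held the most of them in both, 69 (38.3%, 31.2 to 45.9) and 77 (40.5%, 33.5 to 47.9). The right arm thus held the largest share of the 1000 best and the smallest share of the combined regions, but this contrast changed with the number of regions taken. In replicate 1 the counts from left to right were 7, 9 and 5 among the 100 best, 30, 37 and 30 among the 500 best and 29, 30 and 20 at the highest score, where the right arm was not the largest. In replicate 2 they were 5, 5 and 6, then 24, 32 and 32, and 98, 100 and 115. Among the 28 best III regions of each replicate alone replicate 1 placed 12, 10 and 6 from left to right and replicate 2 placed 9, 10 and 9, so the low count on the right was also seen at the top of replicate 1 and not at that of replicate 2. On the other autosomes the centre held the most of the 1000 best in both replicates, 223 of 634 and 254 of 629, though in replicate 1 the right arm was close behind with 220.

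**Figure D2:**
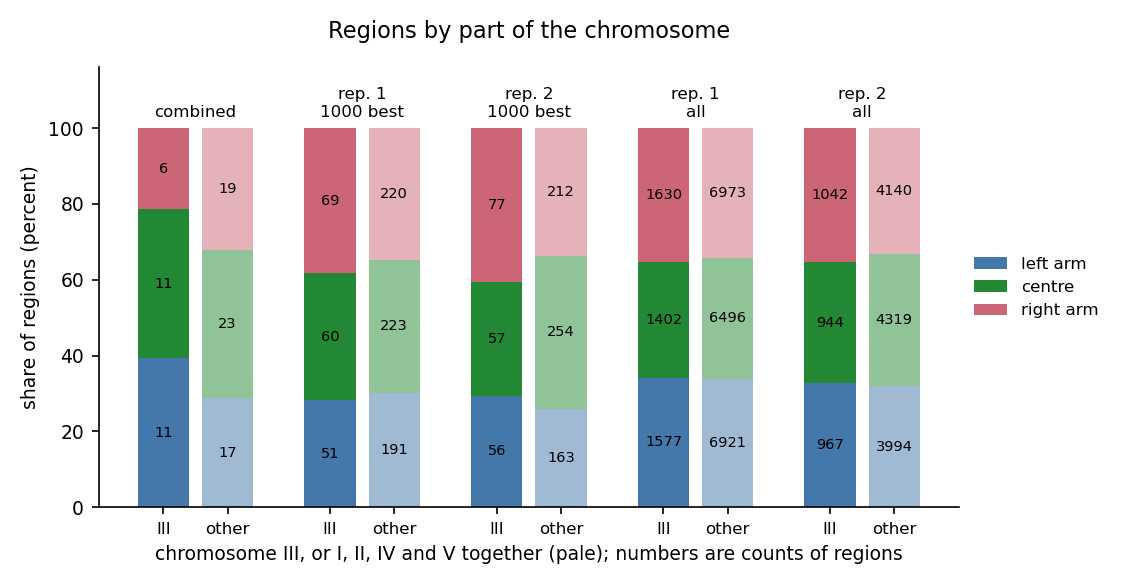
Share of regions in the left arm, centre and right arm of chromosome III (full colour) and of the other autosomes together (pale), for the combined list, the 1000 best nuclear regions of each replicate and the full lists; numbers in the bars are counts. The right arm of III has 6 of 28 combined regions but 69 of 180 and 77 of 190 of the 1000 best.

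In windows of 1 Mb counted from the left end of the span, the window from 4003091 to 5003090 held 7 combined regions, the most of any, and that from 8003091 to 9003090 held 5. The windows starting at 3091, 6003091, 9003091 and 11003091 held 0. The empty windows were not empty of strong replicate regions, since that from 9003091 to 10003090 had 16 of the 1000 best in replicate 1 and 20 in replicate 2. The window from 10003091 to 11003090 had the most of the 1000 best in both replicates, 20 and 21, and 3 combined regions. In the full lists the most regions were in the window starting at 5003091 for replicate 1, with 379, and in that starting at 11003091 for replicate 2, with 241. Among the complete windows, that from 7003091 to 8003090 had the fewest in replicate 1, with 263, and shared the lowest count in replicate 2, 196, with that starting at 3091. Across the 13 complete windows the counts of the full lists rose and fell together (Spearman's rho 0.80), while those of the 1000 best did so less (rho 0.34). Combined counts followed the 1000 best of replicate 1 (rho 0.56) more closely than those of replicate 2 (rho 0.11). These values describe windows of a single chromosome, which share its sequence and are neighbours, and the combined list was made from the replicates.

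Several combined regions of III stood close together. Chained at gaps of at most 100 kb, 13 of the 28 members (46.4%) fell into 5 clusters, where 34.5% of all combined regions had such a neighbour and 25.4% (15 of 59) on the other autosomes. These varied widely, with 6 of 13 on V (46.2%), 7 of 22 on II (31.8%), 2 of 17 on I (11.8%) and 0 of 7 on IV. V thus equalled III at this gap and at a lower density, and X had 11 of 26 (42.3%). At gaps of at most 50 kb the counts were 11 of 28 on III (39.3%), 2 of 13 on V (15.4%) and 7 of 22 on II (31.8%). The share at that gap was 26.5% over all and 18.6% on the other autosomes. III also had the highest density of combined regions, and the part of that in these counts was not tested. Of the clustered regions, 9 were among the 11 of the left arm, 4 among the 11 of the centre and 0 among the 6 of the right arm. These counts by part, and the distances by part that follow, have no reference from the other chromosomes here. The nearest combined neighbour was at least 229.7 kb away for every region of the right arm, and its median distance was 48.8 kb in the left arm, 124 kb in the centre and 362 kb on the right. The longest stretch of III without a combined region between 2 others measured 1.48 Mb, between regions 41 and 66.

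The widest cluster measured 98.0 kb in the centre, from 8767751 to 8865721, and held regions 94, 48, 91 and 92. Regions 91 and 92 were the closest pair, since they overlapped by 321 bp and met the same best region in each replicate. Region 92 also met a second region of replicate 1, number 8796 with a score of 0.399, which region 91 did not. With the overlapping pair merged, the 28 members make 27 loci. The next closest pair was 6.21 kb apart, regions 70 and 113, which with region 110 formed a cluster of 31.7 kb from 4170853 to 4202578. Regions 37 and 96, the closest pair after these, lay 16.6 kb apart in a cluster of 17.8 kb. The other clusters joined regions 2 and 86 over 49.7 kb and regions 111 and 100 over 93.6 kb.

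The combined list was made from the replicates, so where its regions lie in them describes the list and is no independent evidence for a region. Of the 28 members all were found in replicate 1 and 27 in replicate 2, so that 27 (96.4%, 95% interval 81.7 to 99.9) were in both, where 92.9% of all combined regions were. On the other autosomes 52 of 59 were (88.1%, 77.1 to 95.1). A member carried the highest score in replicate 1 in 22 cases (78.6%, with 83.2% over all combined regions) and in replicate 2 also in 22 (78.8% over all). Both replicates gave their highest score to 17 members (60.7%, with 63.7% over all). In 5 members only replicate 1 did, in 5 only replicate 2, and in 1, region 113, neither.

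The peak numbers of the members ran from 16 to 3229 in replicate 1, with a median of 143, and from 14 to 16577 in replicate 2, with a median of 205. Among the first 200 numbers were 20 members in replicate 1, 12 in replicate 2 and 6 in both. Of the 27 members found in both, 5 had numbers within 2-fold of each other and 11 (40.7%) had numbers more than 10-fold apart, where 31.4% of all combined regions found in both did and 34.6% (18 of 52) on the other autosomes. Of these 11, regions 40, 48 and 100 had the highest score in both replicates, so their numbers differ only among ties. At that score stood 386 nuclear regions of replicate 1 and 1670 of replicate 2. The number was lower in replicate 1 for 18 of the 27 and in replicate 2 for 9. In 17 members both scores were at the ceiling, where a lower number is only a place among ties. The medians, these counts and the rho below include such places. Over all combined regions found in both, replicate 1 gave the lower number to 65 of 105, and on the other autosomes to 33 of 52. III was thus near the share over all. The counts within 2-fold, among the first 200 numbers and by part of III have no such reference here. By part, replicate 1 gave the lower number to 8 of 10 regions on the left, 7 of 11 in the centre and 3 of 6 on the right. Across the 27 regions the numbers of the replicates did not rise together (Spearman's rho -0.25). How the authors made the combined list is not known, and regions 91 and 92 enter with the same numbers.

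**Figure D3:**
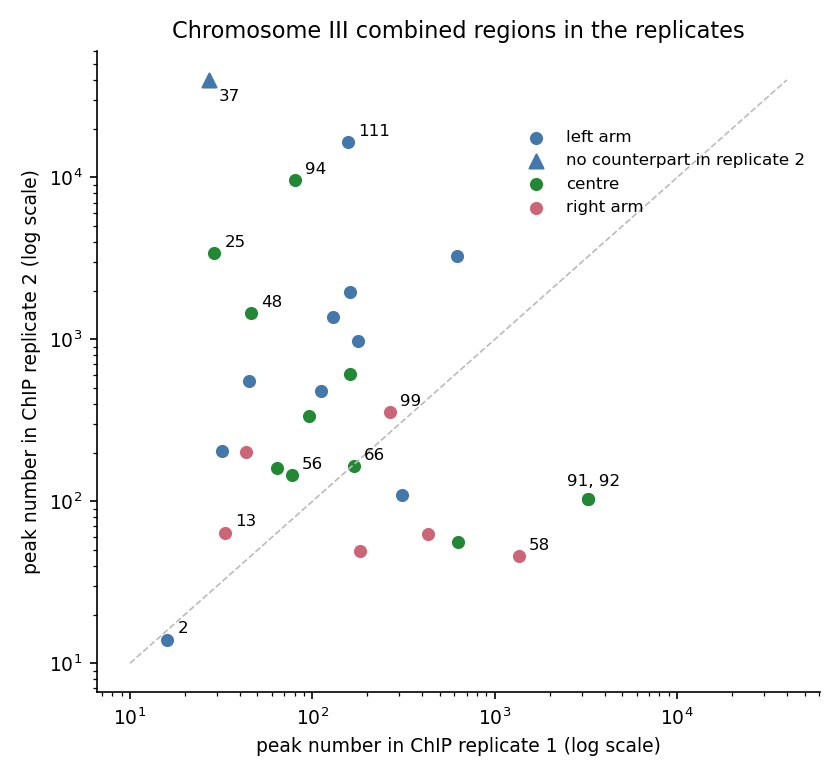
Peak number of the combined regions of chromosome III in ChIP replicate 2 against ChIP replicate 1, both on log scales and coloured by part of the chromosome. The triangle for region 37, which had no counterpart in replicate 2, is set at the top edge and marks no number; the dashed line marks equal numbers, and points whose numbers are under 2-fold or over 25-fold apart carry the combined number. Regions 2, 66 and 99 lie near the line, regions 25, 94 and 111 far above it and regions 58, 91 and 92 far below.

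In the left arm the outermost member was region 17, from 1618841 to 1619430, with number 32 in replicate 1 and 205 in replicate 2, both at the highest score. Region 37, from 2768534 to 2769123, had number 27 in replicate 1 and none in replicate 2. The nearest replicate 2 region there, number 4269 with a score of 2.00, overlapped it by only 12 bp. Region 37 is thus the sole member without a counterpart in replicate 2 under the overlap rule used. Its neighbour, region 96, from 2785735 to 2786324, was placed 161 in replicate 1 and 1966 in replicate 2, where its score was 3.12. Region 40, from 3456096 to 3456685, had numbers 45 and 557.

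Region 2, from 3867419 to 3867686, had the lowest peak number of III in every list, with number 16 in replicate 1 and 14 in replicate 2. This place rests on the number alone. In both replicates region 2 was tied with other III regions at the highest score, and all combined regions have the same score. With 268 bp region 2 is also one of the 3 members narrower than the usual 590 bp, along with regions 25 and 72. Region 86, its cluster neighbour from 3916532 to 3917121, had numbers 177 and 981. The replicates thus gave region 2 nearly equal numbers, and its neighbour numbers that were 5.54-fold apart.

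The next cluster opened with region 110, from 4170853 to 4171442, which had numbers 112 and 482. Region 70, from 4195188 to 4195777, was placed 310 in replicate 1 and 109 in replicate 2. Region 113, from 4201989 to 4202578, carries the highest combined number and was far from the top in both, at number 623 (score 1.86) and number 3283 (score 2.30). It stood 6.21 kb from region 70, which was at the ceiling in both replicates. Region 111, from 4475414 to 4476003, showed one of the widest disagreements, with number 157 at the ceiling in replicate 1 and number 16577 with a score of 0.420 in replicate 2. Region 100, from 4568400 to 4568989, closed the left arm with numbers 129 and 1365, both at the highest score.

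The centre began with region 93 beside region 100. Region 93, from 4756830 to 4757419, had numbers 160 and 615. Region 60, from 4899610 to 4900199, leaned the other way, with number 629 (score 1.87) in replicate 1 and number 56 in replicate 2. Region 25, from 5554980 to 5555163, was again a replicate 1 region, number 29 there and number 3414 with a score of 2.29 in replicate 2. Of these 3, region 60 had the lower number in replicate 2 and the others in replicate 1, though region 93 was at the ceiling in both.

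Regions 41, 66, 63 and 56 stood at the ceiling in both replicates and were spread over the middle of the chromosome. Region 41, from 5678828 to 5679417, had numbers 64 and 160. Region 66, from 7155464 to 7156053, had the most alike numbers of all members, 169 and 165. Region 63, from 7854354 to 7854943, had numbers 96 and 336, and region 56, from 8307189 to 8307778, had numbers 77 and 145. These 4 regions had no combined neighbour within 100 kb.

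The central cluster held members of both kinds. Region 94, from 8767751 to 8768340, was number 80 in replicate 1 but number 9591 with a score of 0.926 in replicate 2, numbers 120-fold apart and the most unlike of any member. Region 48, from 8801787 to 8802376, had numbers 46 and 1451, both at the ceiling. The overlapping regions 91, from 8864863 to 8865452, and 92, from 8865132 to 8865721, both met number 3229 of replicate 1, with a score of 0.848, and number 104 of replicate 2. Their score in replicate 1 was the lowest of any member, while replicate 2 gave them its highest.

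In the right arm region 72, from 10225061 to 10225247, had numbers 182 and 49, and region 45, from 10758952 to 10759541, had numbers 43 and 202. Region 13, from 10989269 to 10989858, followed region 2 as the second lowest combined number of III and had numbers 33 and 64. Region 99, from 12250189 to 12250778, had numbers 266 and 354. All 4 were at the highest score in both replicates.

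The last regions of the chromosome stood better in replicate 2. Region 87, from 12612308 to 12612897, had numbers 430 (score 2.09) and 63. Region 58, from 13070385 to 13070974, was placed 1350 (score 1.42) in replicate 1 and 46 in replicate 2, where it had the second lowest number of III. With region 72, these were 3 of the 5 best III regions of replicate 2, whereas only 1 of the 5 best of replicate 1, region 13, lay in the right arm. Region 2 was the only member among the 5 best of both replicates.

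The best replicate regions at each member lay close to each other. Over the 27 members found in both, the midpoints of the replicate regions were a median of 40 bp apart, with region 63 the closest at 5 bp and region 45 the farthest at 258 bp. The midpoint of the combined region was a median of 21.5 bp from that of replicate 1 and 40 bp from that of replicate 2. Nearly all regions of a list share a single width, 404 bp in replicate 1, 480 bp in replicate 2 and 590 bp in 25 of the 28 members. For regions of these widths the midpoint carries all of the positional information and the width none. Regions 2, 25 and 72 were narrower, at 268, 184 and 187 bp.

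Sharing between the replicates on III fell with the order of the regions, as it did elsewhere. Over the full lists, 683 of 4609 replicate 1 regions on III (14.8%, 13.8 to 15.9) were shared with replicate 2, where 13.0% of all nuclear regions were. On the other autosomes the share was 12.8% together and ran from 10.9% on V to 14.6% on I. In the other direction 673 of 2953 replicate 2 regions on III (22.8%, 21.3 to 24.3) were shared, where 20.7% of all nuclear regions were, with 18.2% on V to 23.6% on I. Chromosome I was thus close to III in both lists, and above it in replicate 2. III also had the highest covered share of its span among the autosomes, and the part of that in these shares was not tested. Along III the shared percentages of left arm, centre and right arm were 13.6, 15.0 and 15.8 for regions of replicate 1. They were 22.5, 21.7 and 24.0 for those of replicate 2, and the intervals overlapped in both.

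Taken by order, 12 of the 21 III regions among the 100 best of replicate 1 were shared with any region of replicate 2 (57.1%, 34.0 to 78.2), where 68.0% of all nuclear regions of that order were. At 101 to 500 it was 31 of 76 (40.8%, with 35.5% over all), and at 501 to 1000 it was 18 of 83 (21.7%, with 20.2% over all). At 1001 to 5000 it was 113 of 636 (17.8%, with 16.0% over all), at 5001 to 10000 it was 100 of 779 (12.8%, with 12.7% over all), and beyond that 409 of 3014 (13.6%, with 11.5% over all). The share on III fell about as it did over all nuclear regions down to the 1000 best, and levelled out below the 5000 best.

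For replicate 2 the III counts were 10 of 16 among the 100 best (62.5%, with 64.0% over all), 31 of 72 at 101 to 500 (43.1%, with 38.2% over all) and 35 of 102 at 501 to 1000 (34.3%, with 31.6% over all). At 1001 to 5000 it was 177 of 660 (26.8%, with 22.1% over all), at 5001 to 10000 it was 160 of 745 (21.5%, with 19.8% over all), and beyond that 260 of 1358 (19.1%, with 18.6% over all). In replicate 2 the order among the 1000 best rests on the peak number alone, since all 190 of its III regions there were at the ceiling.

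**Figure D4:**
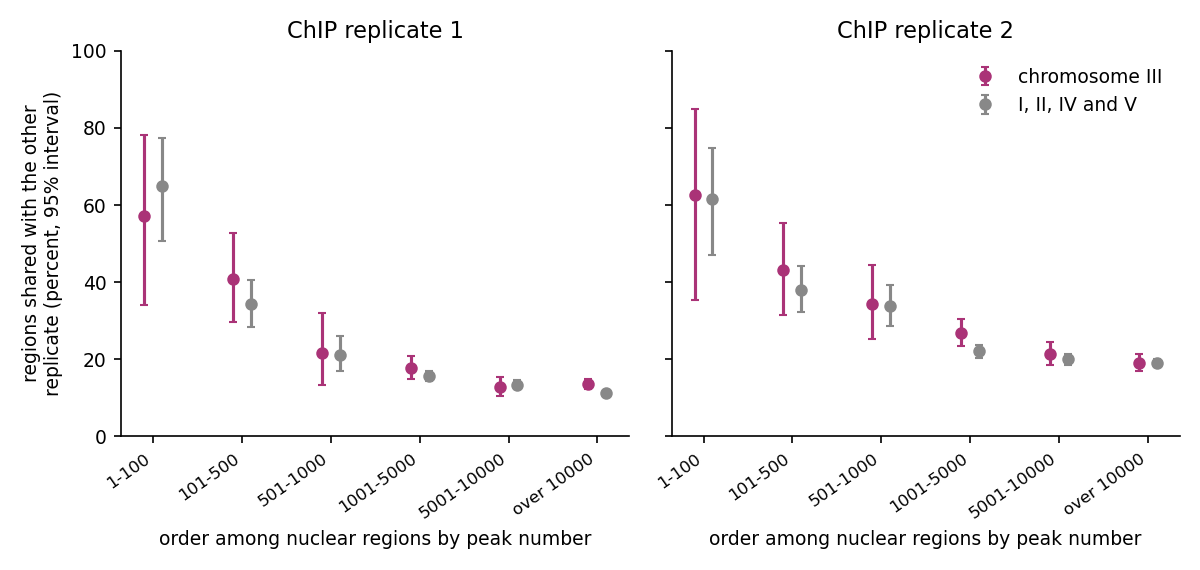
Share of regions that overlap a region of the other replicate by at least 50% of the shorter one, by order among the nuclear regions, for chromosome III and the other autosomes together, with 95% exact intervals, in each ChIP replicate. Both fall from over 50% among the 100 best to under 25% beyond the 5000 best.

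When both lists were restricted to their best regions, few III regions were shared. Of the 21 III regions among the 100 best of replicate 1, 2 were shared with the 100 best of replicate 2 (9.52%, 1.17 to 30.4), where 29.0% of all nuclear regions were and 20.4% (11 of 54) on the other autosomes. At the 400 best it was 12 of 81 (14.8%, with 17.0% over all and 12.8% on the other autosomes). At the 1000 best it was 19 of 180 (10.6%, with 11.5% over all and 10.3% on the other autosomes). At the 5000 best it was 89 of 816 (10.9%, with 8.90% over all and 8.41% on the other autosomes). At the 10000 best it was 192 of 1595 (12.0%, with 10.2% over all and 10.0% on the other autosomes). III thus lay below the share over all nuclear regions up to the 1000 best and above it from the 5000 best. The share over all includes X, where 16 of 25 regions (64.0%) among the 100 best were shared. Against the other autosomes, III was lower at the 100 best and higher at the other sizes given here, counted from replicate 1. Counted from replicate 2, III was lower at the 1000 best as well (10.0% against 10.3%). At the 200 best III was lower from replicate 1 (16.3% against 16.7%) and higher from replicate 2 (18.9% against 16.4%). The direction at these sizes thus depended on the list.

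The 2 sites shared by the 100 best were those of regions 2 and 13. Of the 12 shared by the 400 best, 10 belong to combined regions, namely 2, 13, 17, 41, 56, 63, 66, 70, 72 and 99, with 4 sites in each part of the chromosome when all 12 are counted. The other 2 did not touch a combined region, although both carried the highest score in both replicates. At the first, replicate 1 had number 403, from 4281982 to 4282385, and replicate 2 had number 180, from 4282148 to 4282627. At the second, replicate 1 had number 391, from 12874579 to 12874982, and replicate 2 had number 187, from 12874527 to 12875006. Both therefore stood better placed in both replicates than region 113, which the combined list holds. Region 45, with numbers 43 and 202, was among the 400 best of both replicates but is not among these 12 sites. Its replicate regions each overlapped region 45, with midpoints 258 bp apart, but overlapped each other by less than the rule for sharing asks. Being found in both replicates rests on overlap with the combined region, and being shared on overlap between the replicate regions. Of the 19 sites shared by the 1000 best, 16 met the combined list, where 73 of 115 did over all nuclear regions. On the other autosomes 35 of 65 did, and on X 22 of 31.

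Overlapping regions of low number also lay closer in position. For this, pairs with any overlap were taken, a wider rule than the 50% used for sharing. Among the 23 such pairs of III in which both regions were among the 1000 best, the midpoints were a median of 50 bp apart (quartiles 22.5 and 153.5). In 107 pairs whose lower-placed region was at 1001 to 5000 the median was 152 bp, in 192 pairs at 5001 to 10000 it was 217 bp and in 907 pairs beyond that 201 bp. Overlapping regions of these widths can be less than 442 bp apart. On the other autosomes the medians were 70, 171.5, 200 and 195 bp. The shorter distance among the best pairs was thus seen both on III and elsewhere.

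**Figure D5:**
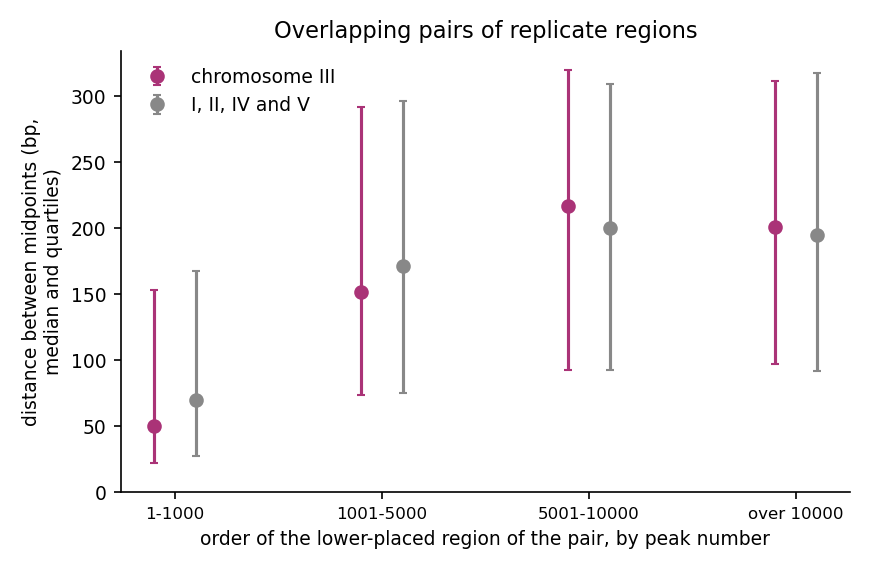
Distance between the midpoints of overlapping replicate regions (median, bars from the lower to the upper quartile, in bp), by the order of the lower-placed region of the pair, for chromosome III and the other autosomes together. On III the median is 50 bp among the 1000 best and between 152 and 217 bp below.

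The scores of matched regions said little about each other. Over 633 pairs of III in which each region was used once, replicate scores had a Spearman's rho of 0.15, and over the 512 pairs with neither score at the ceiling it was 0.12. On the other autosomes rho was 0.15 over 2433 pairs and 0.067 over 2074. These are descriptions across regions, which share their list, its caller and their sequence.

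Most replicate regions of III had another region of the same list nearby. Within 2 kb of their midpoint, 75.7% of replicate 1 regions and 61.0% of replicate 2 regions on III had one, against 70.9% and 56.7% on the other autosomes. Among regions shared by the replicates on III the percentages were 81.0 and 63.9, and among those not shared 74.8 and 60.1. Shared regions thus lay in denser surroundings in both lists, on III and on the other autosomes, where the percentages were 76.9 against 70.0 and 60.9 against 55.7. The part of local density in the shared percentages was not tested.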

How the data were processed

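Larvae were fixed with 2% formaldehyde, and the GFP antibody was applied to sonicated chromatin of which 10% had been set aside as input, per the labels' protocols. Regions carry the score the authors deposited. The sources used here do not state its scale, the aligner, tool versions or thresholds. The peak caller SPP, the IDR method, which keeps regions ranked alike by replicates, and build WS220 are named per the file headers and method fields. Replicate regions were called per sample. All combined regions have the same score, and how that list was made is not given. The regions of III were taken by their chromosome name. Mitochondrial regions (26 and 29) were left out. Samples were grouped by their titles. Overlaps, positions, windows and intervals were computed with Python 3.11.15, numpy 2.4.6, pandas 2.3.3 and scipy 1.17.1, and the overlap count was tested on simulated data. All combined regions of III are named, with the 5 best of each replicate, sites shared by the 400 best that the combined list lacks, extreme windows and closest pairs. The members, settings and comparisons were chosen with earlier results of these data known. Alternatives were the overlap rule, stricter lists, merging, other borders and each replicate alone. Genes and sequence at the regions were not used here, since the reference at hand is of another build.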

Additional observations from a re-analysis of the deposited data

How the results depend on the processing

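The share of combined III regions found in both replicates, 96.4%, became 100% when an overlap of 1 bp sufficed and 71.4% when midpoints had to lie within 100 bp. The share of replicate 1 regions of III that were shared, 14.8%, became 23.4% and 7.25% under the same rules, and that of replicate 2, 22.8%, became 36.2% and 11.3%. With the 1000 best of each list they were 10.6% and 10.0%, and with the 10000 best 12.0% and 12.1%. With only regions at the highest score, an alternative added after the data were seen, they were 25.3% and 6.39%, where the lists differ in length. The III share of the combined list, 24.8%, ranged from 14.2% to 22.1% when 1 replicate alone gave as many best regions, the lower value without replicate 1. It was 24.5% with regions within 10 kb merged and 17.9% among the 56 regions with the lowest numbers. The centre of III, at 39.3%, ranged from 32.1% to 38.5% under 5 alternatives, 1 of them added later (overlapping regions merged), all within its interval. It was 35.7% with either replicate alone. What causes these changes was not examined. No paired analysis was possible because no result comes from a test and the inputs were not analysed here. Depth is unknown, and the score ceiling hides any order among the best regions.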
